A study of Mus musculus with 2 samples.

Results

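The 8 genes described here, Homer1, Mpp7, Arih1, Akap12, Man1b1, Prlr, Abtb2 and F3, were selected on their measured RNA, which stood among the largest ratios of the OVA library over the PBS library in ILC2, macrophage or alveolar type 2 (AT2) nuclei of fetal lung. They are 8 of 32285 gene features in the count matrices. The ratio of a gene in the type that brought it into the set is therefore a description of the choice. Ratios in ILC2, macrophage and AT2 nuclei were all open to the choice. The other 6 cell types, as gated here, lie outside the types named by the choice, and the accessible chromatin was not used by it. The choice may have gated nuclei otherwise, so some nuclei of the 6 types may have been in it. Each gene was read from its own row in both matrices, in every gated cell type.

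Wild type C57BL/6J dams, 6 to 8 weeks old, received alum with 100 µg ovalbumin (OVA) or alum alone by intraperitoneal injection on days -21 and -7, were mated with untreated males, and were then given 500 µg OVA or PBS by the nose between gestation days 4 and 17. Fetal lungs were collected on gestation day 18 (E18), and each group gave 1 library, from the pooled lungs of 8 fetuses for OVA and 9 for PBS, which per the study had 1 dam each. The sort took ILC2s (CD45+ Lin- ST2+), CD45+ immune cells and EpCAM+ cells, nuclei were isolated from the sorted cells, and RNA and accessible chromatin were read from the same nuclei. With 1 library per group no test between the groups was possible, so every ratio below compares these libraries and not the conditions, and every interval is a 95% interval for counting error only.

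The 2 libraries differed as wholes. The PBS library held 8019 barcodes, of which 57.0% were kept, and 45.2% of its UMIs (unique molecular identifiers) were mitochondrial. The OVA library held 5960 barcodes, of which 88.0% were kept, and 29.2% of its UMIs were mitochondrial. Levels are therefore given per 1000000 UMIs of nuclear-encoded genes (nuclear CPM), summed over the nuclei of a type. Nuclei were gated by fixed marker genes into 9 types with at least 50 nuclei in each library, from 63 mast cell or basophil nuclei (PBS) to 830 fibroblast nuclei (OVA). Fibroblast, myofibroblast or smooth muscle and pericyte nuclei were present although the labels list only ILC2s, immune cells and epithelial cells. The gated types held 2302 of 4572 kept PBS nuclei and 3170 of 5246 kept OVA nuclei. No gate had a marker of another type among its 10 leading genes in either library. Many gated nuclei still reached the marker minimum of another type as well. These were 29 of 63 (PBS) and 60 of 112 (OVA) mast cell or basophil nuclei, and 88 of 426 and 220 of 612 ILC2-gated nuclei. Median depth was lower in the PBS library in every type, for example 548 against 956 nuclear UMIs in ILC2-gated nuclei.

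As background, the 8 genes do not belong to one pathway. Homer1 encodes a scaffold that ties glutamate receptors and inositol trisphosphate receptors to their partners, and its short form is induced by activity in neurons. Mpp7 is a membrane-associated guanylate kinase of cell polarity complexes, Akap12 anchors protein kinase A, and Arih1 is an RBR ubiquitin ligase that works with cullin-RING ligases. Man1b1 trims mannose from misfolded glycoproteins in the early secretory pathway, Abtb2 is an ankyrin and BTB domain protein, Prlr is the prolactin receptor and F3 is tissue factor, the starter of the extrinsic clotting cascade.

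Promoter sequence is shown for 3 of the genes, because they were higher in the OVA library in at least 1 type that did not choose them, their first start lay in a region of accessible chromatin, and the bases before it held no exon of a coding gene. The sequences are the 250 bases before the RefSeq transcription start on GRCm38.p6, all on the plus strand and written 5′ to 3′, and capitals mark matches to 8 motifs searched on both strands, so that a match on the minus strand appears as its reverse complement (CCGCCC for GGGCGG). Homer1 lies at chr13:93303507-93303756, Abtb2 at chr2:103566060-103566309 and F3 at chr3:121723287-121723536, where an exon of the noncoding Gm43823 overlaps it.
Homer1: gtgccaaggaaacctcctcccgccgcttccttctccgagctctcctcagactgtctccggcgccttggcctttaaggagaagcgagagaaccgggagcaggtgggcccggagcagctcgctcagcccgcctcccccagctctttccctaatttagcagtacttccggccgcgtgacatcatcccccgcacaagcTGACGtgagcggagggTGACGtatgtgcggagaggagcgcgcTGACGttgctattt
Abtb2: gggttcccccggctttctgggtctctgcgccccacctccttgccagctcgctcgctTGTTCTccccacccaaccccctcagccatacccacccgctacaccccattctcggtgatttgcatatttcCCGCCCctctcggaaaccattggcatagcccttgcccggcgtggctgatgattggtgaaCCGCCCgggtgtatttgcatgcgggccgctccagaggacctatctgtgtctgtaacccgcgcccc
F3: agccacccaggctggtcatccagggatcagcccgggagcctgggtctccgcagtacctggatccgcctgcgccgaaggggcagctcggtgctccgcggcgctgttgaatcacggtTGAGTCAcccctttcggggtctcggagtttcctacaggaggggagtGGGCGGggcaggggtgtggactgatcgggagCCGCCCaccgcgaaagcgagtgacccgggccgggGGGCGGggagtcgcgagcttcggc

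In the Homer1 window, 3 copies of the short cAMP response element (CRE) TGACG began at positions -56, -40 and -14 from the start. At least 1 copy on either strand was found in 17.8% of 32851 RefSeq promoter windows of the same length. The F3 window held the AP-1 site TGAGTCA, whose other strand reads TGACTCA, at positions -135 to -129, which 4.46% of windows held. F3 also had 3 copies of the GC box GGGCGG, and Abtb2 had 2, against 32.7% of windows with at least 1. Abtb2 had 1 copy of the short glucocorticoid response element AGAACA, found in 16.1% of windows. Of the other motifs searched, the full CRE TGACGTCA (1.55% of windows), the E-box CACGTG (6.02%) and the TATA box TATAAA (12.4%) matched none of these 3 windows. RefSeq windows matched 6 of the 8 genes, and a match describes letters and not a bound site.

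Homer1, the scaffold, was higher in the OVA library in all 9 types. In the types that chose it, its level was 228 nuclear CPM (PBS) and 617 nuclear CPM (OVA) in ILC2-gated nuclei, and 68.1 and 301 in macrophage-gated nuclei. AT2-gated nuclei, which did not choose it but were also open to the choice, had 83 UMIs at 99.1 CPM (PBS) and 212 UMIs at 214 CPM (OVA). That is a log2 ratio of 1.11 (0.74 to 1.50), with intervals of the levels that do not overlap. Myofibroblast or smooth muscle nuclei had 143 and 362 CPM, a log2 ratio of 1.34 (0.78 to 1.94). Pericyte nuclei had 173 and 364 CPM, a log2 ratio of 1.07 (0.35 to 1.86). Fibroblast nuclei, with the most UMIs, had 304 and 584 CPM, a log2 ratio of 0.94 (0.71 to 1.18). Homer1 was thus higher at close to 2-fold or more in AT2 and in stromal nuclei. Among nuclei with at most 20% mitochondrial UMIs the ratio was 0.19 (-0.39 to 0.81) in AT2 and 0.49 (0.20 to 0.79) in fibroblast nuclei. The lowest log2 ratio was 0.52 (-0.04 to 1.11) in alveolar type 1 (AT1) nuclei, whose interval reached equality. The AT1 value was lower than that of myofibroblast or smooth muscle nuclei by a log2 difference of -0.82 (-1.60 to -0.042), while no other pair of types among AT2, AT1, fibroblast, myofibroblast and pericyte nuclei differed beyond its interval. In mast cell or basophil nuclei (1.84, 0.38 to 3.78) and monocyte nuclei (1.57, 0.49 to 2.85) the ratio rested on 4 and 8 PBS UMIs. The first was -1.27 (-3.50 to 1.36) with at most 20% mitochondrial UMIs, on 4 PBS and 12 OVA nuclei. The second was 0.52 (-1.05 to 2.37) with nuclei thinned to equal depth.

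Mpp7, the polarity scaffold, had ratios that differed between types. Its levels were 382 and 1377 nuclear CPM (PBS and OVA) in ILC2-gated nuclei and 163 and 657 in macrophage-gated nuclei, the 2 types that chose it. Monocyte-gated nuclei, which did not choose it, had 18 UMIs at 244 CPM and 138 UMIs at 779 CPM, a log2 ratio of 1.67 (0.96 to 2.47). Mast cell or basophil nuclei had 263 and 636 CPM, a log2 ratio of 1.28 (0.46 to 2.20), and fibroblast nuclei had 146 and 298 CPM, a log2 ratio of 1.03 (0.69 to 1.38). Thinned to equal depth, the monocyte ratio was 0.91 (-0.14 to 2.09). With at most 20% mitochondrial UMIs the mast cell or basophil ratio was -0.91 (-2.24 to 0.59), on 4 PBS and 12 OVA nuclei. The epithelial types sat lower. AT2-gated nuclei had 326 and 474 CPM, a log2 ratio of 0.54 (0.32 to 0.76), and AT1-gated nuclei had 628 and 766 CPM, a log2 ratio of 0.29 (0.068 to 0.51). The AT1 interval reached equality under several alternatives, such as relative to the median gene and without the 5% deepest nuclei. The monocyte ratio exceeded the AT1 ratio by 1.39 on the log2 scale (0.65 to 2.13) and the AT2 ratio by 1.13 (0.39 to 1.88), and the fibroblast ratio exceeded the AT1 ratio, with a difference of AT1 minus fibroblast of -0.74 (-1.14 to -0.35). The order of levels turned over between the libraries, but ILC2-gated nuclei chose Mpp7, so their place in the OVA library describes the choice. In the PBS library AT1 nuclei had the most Mpp7, above ILC2-gated nuclei by a log2 ratio of 0.72 (0.41 to 1.03). In the OVA library ILC2-gated nuclei had the most, above monocytes by 0.82 (0.56 to 1.09), and monocyte and AT1 nuclei were not apart (0.025, -0.25 to 0.30).

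Arih1, the ubiquitin ligase, passed 100 UMIs over both libraries in all 9 types. In ILC2-gated nuclei, which chose it, it had 989 and 2533 nuclear CPM. Fibroblast nuclei had 900 UMIs at 1582 CPM in the PBS library and 4805 UMIs at 2582 CPM in the OVA library, a log2 ratio of 0.71 (0.60 to 0.81). AT2, fibroblast and myofibroblast or smooth muscle nuclei gave nearly one value, 0.71 (0.57 to 0.85), 0.71 and 0.72 (0.47 to 0.98), and pericyte nuclei gave 0.59 (0.29 to 0.90). AT1 nuclei stood below them at 0.14 (-0.05 to 0.34), a difference of AT1 minus fibroblast of -0.56 (-0.78 to -0.35). Monocyte nuclei were also low, at 0.24 (-0.13 to 0.62). Arih1 was thus less than 2-fold higher in each of the 8 types that did not choose it, and its interval lay above equality in 6 of them. These include macrophage (0.84, 0.55 to 1.15) and AT2 nuclei, which were also open to the choice. In the 6 types outside the choice, 4 intervals lay above equality. With at most 20% mitochondrial UMIs the macrophage value was -0.52 (-2.46 to 2.57), on 2 PBS and 17 OVA nuclei. Fibroblast nuclei had the highest Arih1 level in both libraries, and in the OVA library ILC2-gated nuclei were within counting error of them (log2 0.028, -0.049 to 0.10).

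**Figure D1:**
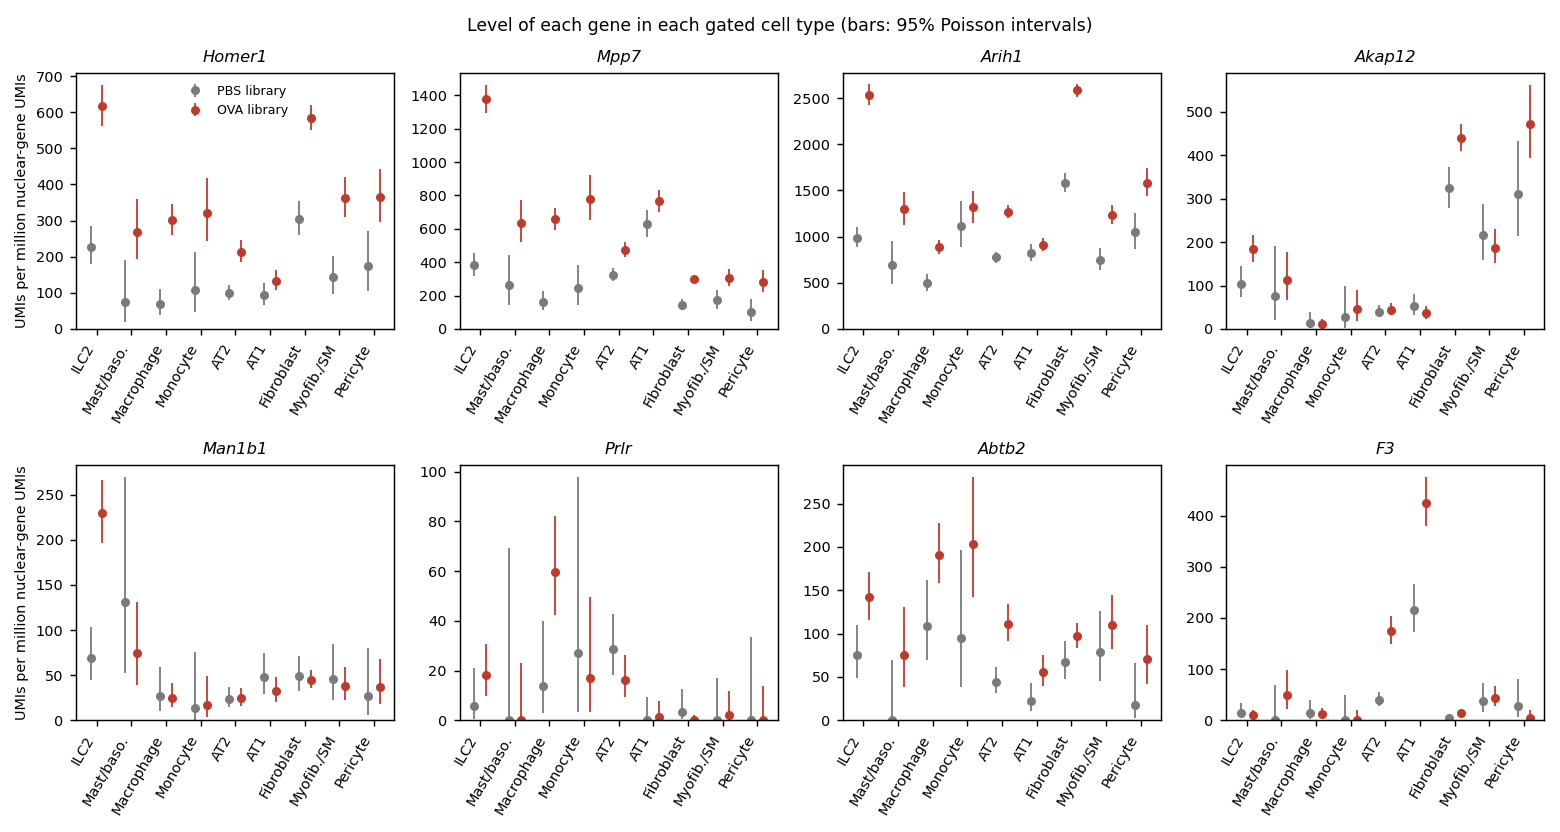
Level of each gene in UMIs per 1000000 nuclear-gene UMIs (vertical axis, linear, one scale per panel) in the 9 gated types, for the PBS library (grey) and the OVA library (red). Points are 1 library each and bars are 95% Poisson intervals. Homer1 is higher in red in all 9 types, while Akap12 is mainly a gene of fibroblast and pericyte nuclei and F3 one of AT1 nuclei.

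Akap12, the kinase A anchor, was mainly a stromal gene. Its highest levels were 324 nuclear CPM in fibroblast and 310 CPM in pericyte nuclei of the PBS library, and 440 and 471 CPM in the OVA library, and these 2 types did not differ beyond their intervals in either library. It entered the set through ILC2-gated nuclei, where 36 UMIs at 104 CPM stood against 142 UMIs at 184 CPM, a log2 ratio of 0.83 (0.29 to 1.40). With these gates Akap12 was 148th of 2267 genes by ratio in ILC2-gated nuclei, and its ratio there ran from 0.17 to 1.9 over the alternatives tried. Outside that type it was higher in fibroblast nuclei by 0.44 (0.21 to 0.68) and in pericyte nuclei by 0.60 (0.048 to 1.19). The pericyte interval reached equality under most alternatives, for example at 0.52 (-0.04 to 1.11) relative to the median gene and 0.087 (-0.50 to 0.72) without the 5% deepest nuclei. In myofibroblast or smooth muscle nuclei the value was -0.21 (-0.74 to 0.33), and it differed from the fibroblast value (0.66, 0.10 to 1.21).

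Man1b1, the mannosidase, was higher in the OVA library in ILC2-gated nuclei and not detectably so elsewhere. ILC2-gated nuclei, which chose it, had 24 UMIs at 69.4 CPM in the PBS library and 177 UMIs at 230 CPM in the OVA library. In fibroblast nuclei, the one other type with 100 UMIs, the levels were 49.2 and 45.1 CPM, a log2 ratio of -0.13 (-0.76 to 0.55). In macrophage nuclei the log2 ratio was -0.11 (-1.54 to 1.53), in AT2 nuclei 0.022 (-0.90 to 0.95) and in AT1 nuclei -0.58 (-1.52 to 0.38), each on fewer than 100 UMIs. In the OVA library the ILC2 level exceeded the next type, mast cell or basophil nuclei, by 1.62 on the log2 scale (0.78 to 2.60), which describes the choice. In the PBS library no type was apart from its neighbour at the top of the order. Man1b1 spans 19.9 kb and overlaps AA543186 on the opposite strand and Gm25220 on its own.

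Prlr, the prolactin receptor, was rare everywhere. Its macrophage ratio, for which it was chosen, rested on 3 UMIs in the PBS library and 38 UMIs in the OVA library, a log2 ratio of 2.14 (0.48 to 4.48). AT2-gated nuclei ran the other way without leaving equality, with 24 UMIs at 28.7 CPM and 16 UMIs at 16.2 CPM, a log2 ratio of -0.83 (-1.84 to 0.15). Mast cell or basophil and pericyte nuclei had 0 UMIs in both libraries. In the nuclei that no gate took, which have no cell type name, Prlr had 16 UMIs (PBS) and 71 UMIs (OVA), a log2 ratio of 1.70 (0.91 to 2.59). Prlr never reached 100 UMIs in a gated type, so it could not be counted as higher in any.

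Abtb2, the BTB protein, was higher in the OVA library in each type where it had 100 UMIs with these gates. It was chosen in AT2 nuclei (44.2 and 111 nuclear CPM). ILC2-gated and macrophage nuclei did not choose it but were also open to the choice. ILC2-gated nuclei had 26 UMIs at 75.2 CPM and 109 UMIs at 142 CPM, a log2 ratio of 0.91 (0.29 to 1.59). Macrophage nuclei had a ratio of 0.81 (0.17 to 1.50). Fibroblast nuclei, outside the choice, had one of 0.54 (0.03 to 1.09). AT1 nuclei gave 1.30 (0.23 to 2.53) on 9 and 40 UMIs. The fibroblast ratio was -0.02 (-0.64 to 0.66) among nuclei with at most 20% mitochondrial UMIs, and the macrophage ratio was -0.33 (-1.11 to 0.55) among those with 20 to 40%. The difference between ILC2-gated and fibroblast nuclei was within its interval (0.37, -0.43 to 1.17).

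F3, tissue factor, had its highest level in AT1 nuclei in both libraries. AT1-gated nuclei, which did not choose it, had 86 UMIs at 216 nuclear CPM in the PBS library and 306 UMIs at 425 CPM in the OVA library, a log2 ratio of 0.98 (0.63 to 1.34). AT2-gated nuclei, which chose it, had 39.4 and 175 CPM. In the PBS library they were not apart from myofibroblast or smooth muscle nuclei at 36.9 CPM (log2 0.094, -1.05 to 1.42). AT1 nuclei were above AT2 nuclei by 2.45 on the log2 scale (1.86 to 3.08) in the PBS library and by 1.28 (1.01 to 1.56) in the OVA library. Both alveolar types were thus higher in the OVA library, and AT1 remained the type with the most F3. Fibroblast nuclei held 2 UMIs (PBS) and 28 UMIs (OVA), a log2 ratio of 2.10 (0.11 to 5.21). That interval reached equality under several alternatives, such as 1 more marker needed and removal of the 5% deepest nuclei. F3 was at 0 UMIs in monocyte nuclei of both libraries.

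**Figure D2:**
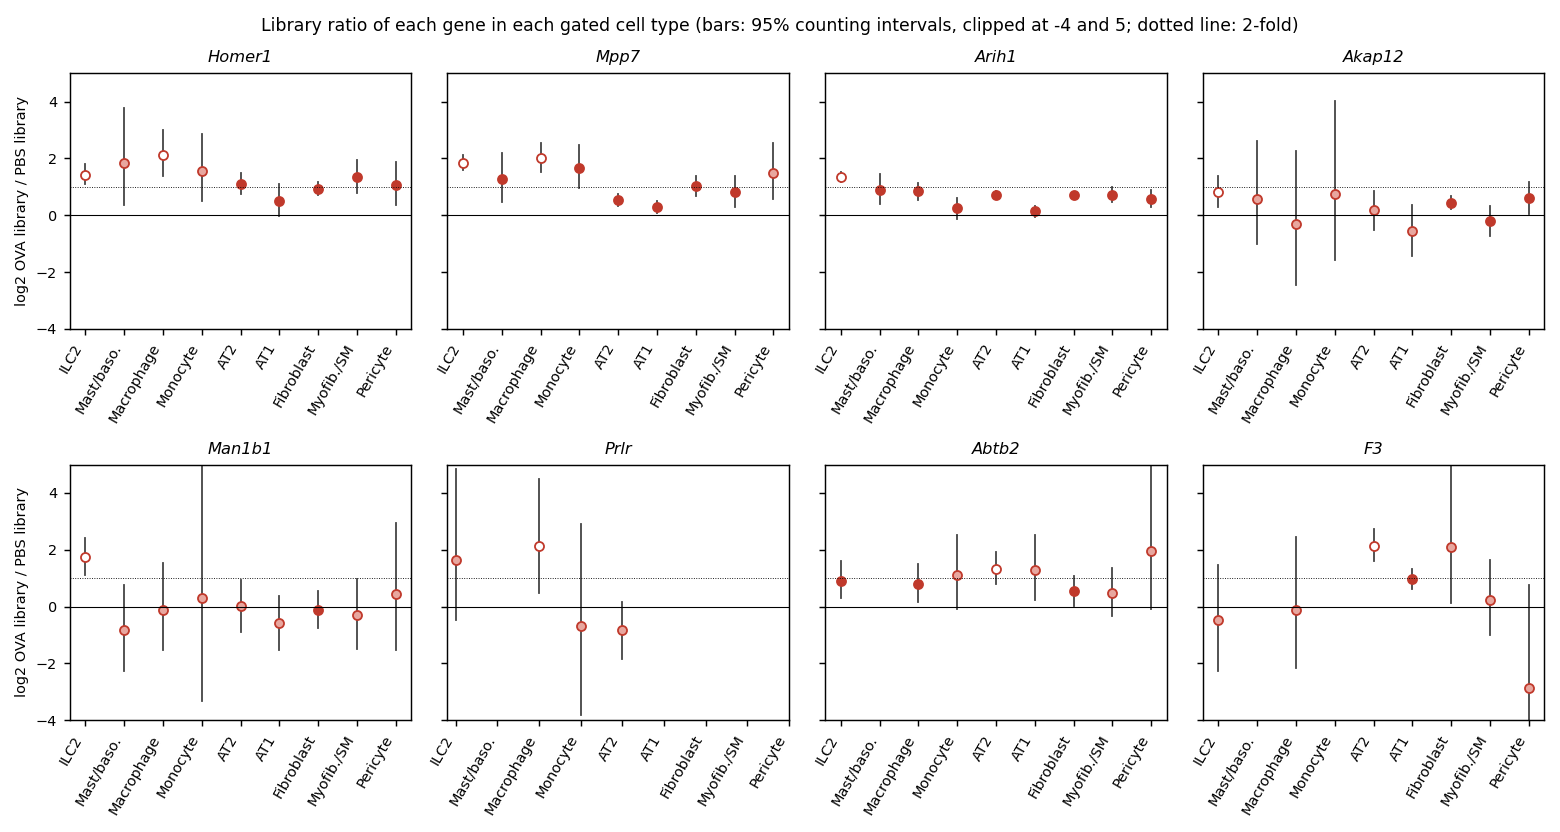
Log2 ratio of the OVA library over the PBS library (vertical axis) for each gene in the 9 gated types, with 95% counting intervals clipped at -4 and 5. Open circles are the gene and type pairs that chose the genes, dark circles other pairs with at least 100 UMIs and pale circles pairs with fewer, and a pair with 0 UMIs in a library has no point. No interval lies wholly below 0.

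Counted over the 6 types that chose none of the genes (mast cell or basophil, monocyte, AT1, fibroblast, myofibroblast or smooth muscle, pericyte), 21 of 48 gene and type pairs had at least 100 UMIs. Of these, 5 were at least 2-fold higher with an interval above equality (23.8%), against 1.43% of all gene and type pairs in those types. The 5 were Homer1 in myofibroblast or smooth muscle and in pericyte nuclei, and Mpp7 in mast cell or basophil, monocyte and fibroblast nuclei. Without nuclei at the marker minimum of another type, the interval of Mpp7 in mast cell or basophil nuclei reached equality. The minimum of 100 UMIs sums both libraries, for members and for all pairs, so some passed it mainly on OVA UMIs. Mpp7 had 14 (PBS) and 102 (OVA) UMIs in mast cell or basophil and 18 and 138 in monocyte nuclei, and Homer1 had 19 and 98 in pericyte nuclei. By type, 1.33% of genes passed the same rule in myofibroblast or smooth muscle, 1.80% in pericyte, 8.81% in mast cell or basophil, 5.97% in monocyte, 0.834% in fibroblast and 0.531% in AT1 nuclei. At any fold, 16 of the 21 had an interval above equality, against 16.7% of all pairs, and none had one below. Over all members and types, 15 of 30 intervals above equality reached it with at most 20% mitochondrial UMIs and 16 of 36 with nuclei thinned to equal depth. The limit of 20% left few nuclei in some types, such as 18 ILC2-gated and 2 macrophage nuclei in the PBS library. The members still come from the same 2 libraries in every type, so these types repeat the comparison in nuclei gated to other types and not in other animals. Some of these nuclei may have been in the choice, which may have gated nuclei otherwise.

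Summed over the 8 genes and those 6 types, there were 2846 UMIs at 2004 nuclear CPM (PBS) and 11993 UMIs at 3270 nuclear CPM (OVA), a log2 ratio of 0.71 (0.65 to 0.77). Arih1 alone gave 1625 and 6923 of these UMIs. Within single types the sum of the 8 genes gave log2 ratios from 0.32 (0.20 to 0.45) in AT1 nuclei to 1.02 (0.64 to 1.42) in mast cell or basophil nuclei. The mix of types differed between the libraries, since fibroblast nuclei gave 568734 of the 1420084 nuclear UMIs (PBS) and 1861139 of the 3668007 (OVA), so a pooled ratio of a single gene also carries that mix. F3, with 86 of its 99 PBS UMIs and 306 of its 364 OVA UMIs in AT1 nuclei, pooled to 0.51 (0.19 to 0.84) against 0.98 within AT1 nuclei. Among nuclei with at most 20% mitochondrial UMIs, the summed log2 ratio was 0.48 (0.39 to 0.56) and 0 of the 12 pairs with at least 100 UMIs were at least 2-fold higher. Among nuclei with 20 to 40% mitochondrial UMIs it was 0.73 (0.63 to 0.83). The share of mitochondrial UMIs, higher in the PBS library in every type (25.2% against 17.4% in fibroblast nuclei), moved with the size of the ratio, and its part in it was not tested.

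**Figure D3:**
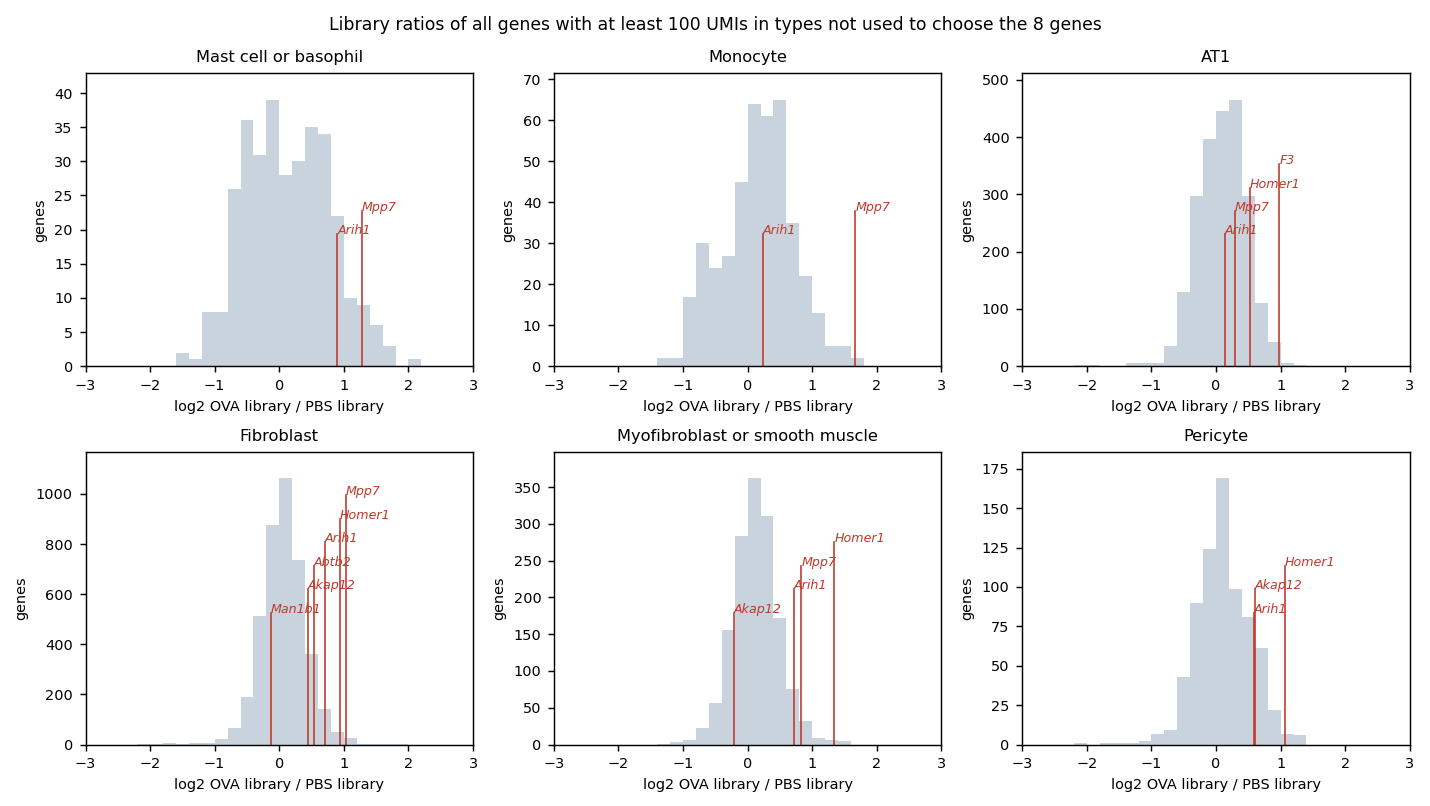
Number of genes (vertical axis) by log2 ratio of the OVA library over the PBS library (horizontal axis, bins of 0.2) among genes with at least 100 UMIs in each of the 6 types that chose none of the 8 genes. Red lines mark the members with at least 100 UMIs there, at heights that only keep their names apart, and Mpp7 lies in the right tail in fibroblast and monocyte nuclei while Man1b1 in fibroblast and Akap12 in myofibroblast or smooth muscle nuclei lie left of 0.

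Within the 3 types that chose the genes, values are given as a description. In ILC2-gated nuclei 4 of the 6 members with 100 UMIs were at least 2-fold higher, where 3.93% of 2267 genes were. In macrophage-gated nuclei 2 of 4 were, where 3.09% of genes were, and in AT2-gated nuclei 3 of 5, where 1.49% were. No single ratio separates members from other genes with these gates. In ILC2-gated nuclei Tinf2 (2.11), Zdbf2 (2.06) and Pak1 (2.00) are not members and stood above Mpp7, which was 4th at 1.85, and Man1b1, which was 5th at 1.73 (1.11 to 2.41). Dach2, also no member, was next at 1.64 (1.05 to 2.30), and Homer1 (23rd) and Arih1 (27th) followed further down. In macrophage-gated nuclei Homer1 and Mpp7 were 1st and 2nd, and the next gene, Fyn, had 1.82 (0.89 to 2.93). In AT2-gated nuclei F3 was 2nd, between Scgb1a1 at 2.20 and Areg at 1.66, and Abtb2 was 13th. In the marker lists used for gating, Scgb1a1 is a club or secretory cell marker and Areg an ILC2 marker.

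The libraries shared 54 barcodes, 32 of them kept in both, and leaving these out moved the summed ratio of the members by less than its interval. Marker levels of other cell types also differed between the libraries. In ILC2-gated nuclei the 9 AT2 markers summed to 1738 nuclear CPM (PBS) and 766 (OVA), and 1 of the 9 was higher in the OVA library. The 8 fibroblast markers summed to 798 and 423 CPM there, with 2 of 8 higher in the OVA library, and the myofibroblast or smooth muscle markers summed to 434 and 169 CPM. Other lists were higher in the OVA library in the same nuclei, namely the 10 mast cell or basophil markers at 1451 and 2147 CPM (7 of 10 higher), the 10 macrophage markers at 332 and 477 CPM (6 of 10 higher) and the 8 AT1 markers at 168 and 229 CPM (6 of 8 higher). The 11 ILC2 markers summed to 10779 and 13860 CPM, with 10 of 11 higher. No AT2 or fibroblast marker was at 0 in either library. In AT2-gated nuclei, where F3 and Abtb2 were chosen, the 9 AT2 markers summed to 30212 and 28826 CPM. There the AT1, myofibroblast or smooth muscle and pericyte lists were lower in the OVA library (1740 and 1186, 302 and 101, 230 and 49.5 CPM). The ILC2, mast cell or basophil and fibroblast lists were higher there (256 and 316, 191 and 248, 472 and 555 CPM). The part of RNA from other cells in the members' ratios was not tested.

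To set shares of nuclei side by side, each nucleus was thinned to 500 nuclear UMIs. In ILC2-gated nuclei 239 PBS and 525 OVA nuclei were deep enough, and 187 and 87 were not. At least 1 Mpp7 UMI was found in 16.3% (11.9 to 21.6) of PBS and 44.4% (40.1 to 48.7) of OVA nuclei, at least 1 Homer1 UMI in 6.69% (3.87 to 10.6) and 20.8% (17.4 to 24.5), and at least 1 Arih1 UMI in 34.3% (28.3 to 40.7) and 58.1% (53.7 to 62.4). Unthinned, the Mpp7 shares were 23.9% and 60.8%, the Homer1 shares 10.3% and 33.7% and the Arih1 shares 37.6% and 74.2%. These nuclei chose the 3 genes, so the shares describe the choice at equal depth. In fibroblast nuclei the thinned Homer1 share was 7.12% (4.71 to 10.3) and 16.3% (13.9 to 19.0), and the summed thinned counts gave a log2 ratio of 1.62 (1.07 to 2.21) in place of 0.94. For F3 the thinned shares were 7.77% (4.42 to 12.5) and 14.2% (10.5 to 18.7) in AT1 nuclei and 1.26% and 0.571% in ILC2-gated nuclei. Macrophage-gated nuclei with a Prlr UMI were 0.571% (0.0145 to 3.14) and 2.52% (1.16 to 4.73), beside 0 of 821 fibroblast nuclei in the OVA library.

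Co-detection of the most detected members within an ILC2-gated nucleus of the OVA library was close to what their separate shares give. In thinned ILC2-gated nuclei of the OVA library, 54 had both Homer1 and Mpp7 where the product of the shares gives 48.4, 72 had Homer1 and Arih1 (63.3), and 138 had Mpp7 and Arih1 (135). Pairs with rarer members went both ways there, such as Homer1 and Abtb2 (13 against 8.30) and Mpp7 and Akap12 (12 against 17.3). In AT2-gated nuclei of the OVA library, Homer1 and Arih1 met in 24 (16.0) and Homer1 and Mpp7 in 11 (7.44), while Mpp7 and Arih1 met in 23 (24.8). The mean number of members detected per thinned ILC2-gated nucleus was 0.695 (PBS) and 1.51 (OVA). Nuclei with no member made up 45.6% (39.2 to 52.2) and 15.6% (12.6 to 19.0), and nuclei with at least 4 made up 0% and 2.48% (1.32 to 4.20). These nuclei chose 5 of the 8 genes, so the counts describe the choice. In fibroblast nuclei, which chose none, the mean was 0.715 (PBS) and 1.06 (OVA) members per nucleus.

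**Figure D4:**
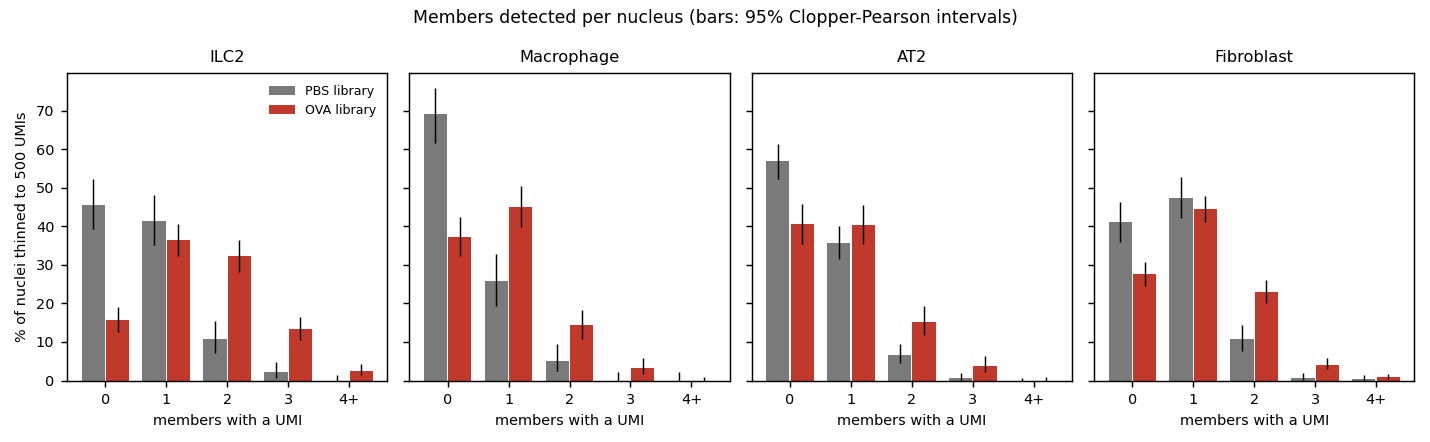
Percent of nuclei (vertical axis) with 0, 1, 2, 3 or at least 4 of the 8 genes detected (horizontal axis) after thinning each nucleus to 500 nuclear UMIs, in 4 types, PBS library in grey and OVA library in red. Bars on the columns are 95% Clopper-Pearson intervals. The columns at 0 are lower in the OVA library in all 4 types.

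Accessibility within 100 kb of the members' starts was close to equal between the libraries in ILC2-gated nuclei. Over the 8 windows, the 131 peaks of each library that overlapped a peak of the other held 5781 counts, 1534 per 1000000 (PBS), and 7687 counts, 1485 per 1000000 (OVA), a log2 ratio of -0.047 (-0.10 to 0.0025). The peaks covered 115314 and 116917 bases, and per kb the log2 ratio was -0.067. No member had an interval above equality, where 10.5% of 24860 gene starts did, and 1 had one below, where 14.3% did. That one was Homer1, with 111 and 88.7 counts per 1000000, a log2 ratio of -0.33 (-0.52 to -0.13). Mpp7 gave -0.021 (-0.18 to 0.14), Arih1 -0.056 (-0.17 to 0.059), Man1b1 -0.024 (-0.10 to 0.058) and Akap12 0.18 (-0.053 to 0.42). Of the 8 windows, the one around Man1b1 also holds the starts of 21 other coding genes, while those of Homer1, Mpp7, Akap12 and Prlr hold none.

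**Figure D5:**
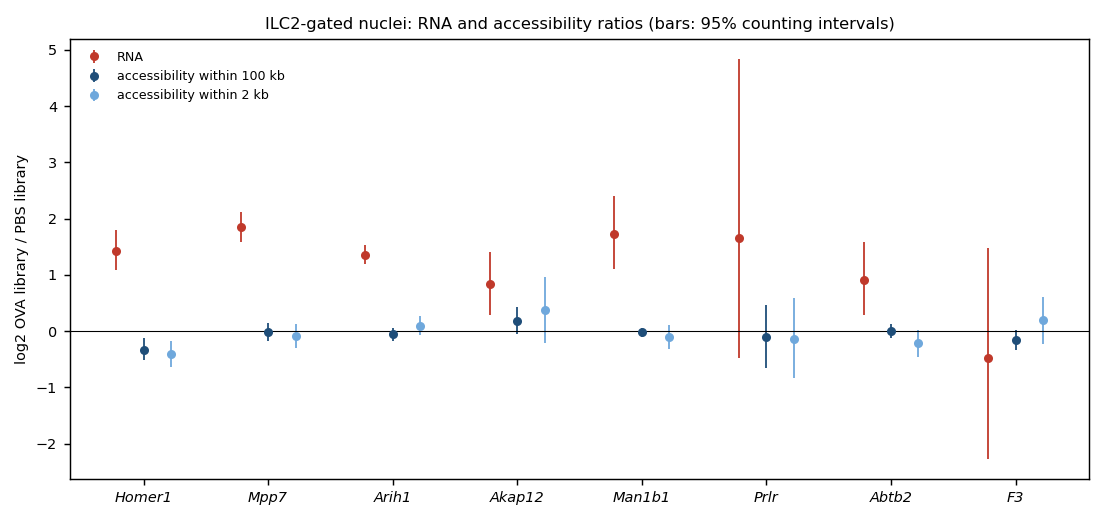
Log2 ratio of the OVA library over the PBS library (vertical axis) in ILC2-gated nuclei for each gene, for RNA (red), accessibility in peaks within 100 kb of the start (dark blue) and within 2 kb (light blue), with 95% counting intervals. The RNA values of Homer1, Mpp7, Arih1, Akap12 and Man1b1 are those that chose them, and no accessibility interval lies above 0 while those of Homer1 lie below it.

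The starts themselves were read within 2 kb. In the peak over the Homer1 start, which contains the sequence shown above, ILC2-gated nuclei had 313 counts at 83.1 per 1000000 (PBS) and 324 counts at 62.6 per 1000000 (OVA), a log2 ratio of -0.41 (-0.64 to -0.18). Within 2 kb of the start, Mpp7 gave -0.087 (-0.30 to 0.12), Man1b1 -0.11 (-0.32 to 0.10), Abtb2 -0.22 (-0.46 to 0.015) and Arih1 0.095 (-0.067 to 0.26). None of the 7 members with 100 counts had an interval above equality and 1 had one below, where 7.20% and 12.5% of 13227 starts did. Over single regions near the members with at least 30 counts, 3 of 65 had an interval above equality in ILC2-gated nuclei, against 9.88% of all regions, and 3 had one below, against 8.30%. The highest was 3.66 kb inside Abtb2 at chr2:103569507-103570430, with 8 and 40 counts, a log2 ratio of 1.86 (0.75 to 3.17). The others above were 47.4 kb inside Mpp7 (1.45, 0.29 to 2.78) and at -9.92 kb from F3 (1.13, 0.29 to 2.04). Both shares are near or under the background, and nothing is read from them about the members.

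In the other types the pooled values were also small. The pooled log2 ratio within 100 kb was -0.029 (-0.094 to 0.037) in macrophage, 0.061 (-0.022 to 0.14) in AT1, 0.012 (-0.066 to 0.09) in myofibroblast or smooth muscle and -0.0032 (-0.11 to 0.11) in pericyte nuclei. It was -0.094 (-0.15 to -0.04) in fibroblast nuclei and 0.054 (0.0091 to 0.10) in AT2 nuclei. In fibroblast nuclei 1 of 8 members had an interval above equality and 2 below, against 12.2% and 16.5% of gene starts. Single members stood above equality in some types. Mpp7 gave 0.56 (0.12 to 1.02) in monocyte nuclei, where 7.97% of gene starts were above, and 0.53 (0.14 to 0.93) in mast cell or basophil nuclei, where 9.00% were. F3 gave 0.18 (0.065 to 0.29) in AT2 nuclei and 0.26 (0.061 to 0.47) in macrophage nuclei, where 10.2% and 9.09% were. In AT1 nuclei, which did not choose it, F3 gave 0.26 (0.045 to 0.48) within 100 kb, where 10.3% of gene starts were above. Within 2 kb of its start F3 had 49 counts (PBS) and 109 counts (OVA) in AT1 nuclei, a log2 ratio of 1.00 (0.50 to 1.52), where 8.12% were above. Man1b1 gave 0.30 (0.12 to 0.49) within 100 kb and 0.60 (0.084 to 1.14) within 2 kb in mast cell or basophil nuclei, where 9.00% and 5.80% were above, and Abtb2 gave 0.39 (0.14 to 0.64) within 100 kb in myofibroblast or smooth muscle nuclei, where 8.36% were. Prlr stood above on few counts, with 13 and 54 within 2 kb in macrophage nuclei (1.00, 0.11 to 2.00) and 2 and 19 within 100 kb in AT1 nuclei (3.10, 1.04 to 6.24). In pericyte nuclei it lay below within 100 kb, on 12 and 8 counts (-1.56, -3.05 to -0.15). These lie under the 100 counts that the background shares required. Within 2 kb of the start in macrophage nuclei, Homer1 (-0.58, -0.88 to -0.28) and Abtb2 (-0.55, -0.92 to -0.17) were below equality, as were 11.9% of starts there. In mast cell or basophil nuclei Akap12 (-0.49, -0.97 to -0.012) and Abtb2 (-0.39, -0.68 to -0.093) lay below within 100 kb, where 10.7% of gene starts did. Abtb2 also lay below within 2 kb there (-1.14, -1.72 to -0.58), where 11.5% did. Akap12 lay below within 100 kb in myofibroblast or smooth muscle nuclei (-0.52, -0.86 to -0.17), where 10.6% did. Others lay below as well, such as Man1b1 within 2 kb in fibroblast nuclei (-0.50, -0.73 to -0.25).

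Partners of the 8 genes were read from 9 lists of related genes in ILC2-gated nuclei, where all 2267 genes tested had a median log2 ratio of 0.11. No gene of the lists for Homer and calcium-release partners, polarity scaffolds, cullin ligase partners, kinase A anchors, mannosidases, cullin 3 adaptors or coagulation was at least 2-fold changed in either direction. The inositol trisphosphate receptors Itpr2 and Itpr1, which Homer proteins bind, had log2 ratios of 0.41 (0.15 to 0.67) and 0.30 (0.039 to 0.56), the only 2 of 14 in that list with 100 UMIs. The scaffold Dlg1 had 0.12 (-0.26 to 0.51), the only one of 16 polarity genes tested. Of the cullins, Cul2 and Cul3 were highest at 0.64 (-0.04 to 1.38) and 0.55 (0.20 to 0.91), and Cand1 and Cul1 lowest at 0.06 and -0.028.

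Of the 4 kinase A genes tested, Akap6 (0.70, 0.29 to 1.13) and Akap13 (0.34, 0.17 to 0.52) were highest and Prkar1a (-0.29, -0.69 to 0.11) and Akap9 (-0.45, -0.87 to -0.017) lowest. Man1a, a Golgi mannosidase, had 0.48 (0.22 to 0.75), Uggt1 0.35, Edem1 0.15 and Man1a2 -0.042. In the prolactin receptor and Jak-Stat5 list, Socs2 (0.73, 0.37 to 1.11) and Jak2 (0.69, 0.45 to 0.93) were highest and Jak1 gave 0.27 (0.013 to 0.53). Ghr, the growth hormone receptor and the relative of Prlr, had 330 nuclear CPM (PBS) and 76.6 CPM (OVA), a log2 ratio of -2.10 (-2.58 to -1.64), and was the only listed gene at least 2-fold lower, where 2.07% of all genes were. The cullin 3 adaptor Spop had 0.13 (-0.39 to 0.68), and Plaur and F13a1 of the coagulation list had 0.23 (-0.17 to 0.64) and -0.22 (-0.82 to 0.41).

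Among activity and cAMP responsive genes, 18 of 25 were tested and their median was 0.21. The nuclear receptors Nr4a3 (1.49, 1.20 to 1.80) and Nr4a2 (1.14, 0.94 to 1.35) were at least 2-fold higher, as were 3.93% of all genes, while Egr1 (-0.62, -0.87 to -0.37) and Fos (-0.75, -0.94 to -0.56) were lowest. The list thus held genes that moved both ways, with 6 intervals above equality and 5 below. In macrophage-gated nuclei the same list had 1 gene at least 2-fold higher of 16 (3.09% of all genes), in AT2-gated nuclei 2 of 20 (1.49%) and in fibroblast nuclei 1 of 19 (0.834%).

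Genes beside the members on the chromosome went both ways in ILC2-gated nuclei, and of those named, Jmy, Wac and Neo1 had intervals that left out equality. Within 500 kb of Homer1, Jmy had a log2 ratio of 1.15 (0.76 to 1.55) and Tent2 one of 0.44 (-0.13 to 1.05). Wac beside Mpp7 had 0.66 (0.45 to 0.87), Mthfd1l beside Akap12 had 0.40 (-0.06 to 0.89) and Caprin1 beside Abtb2 had -0.30 (-0.71 to 0.12). Beside Arih1, Myo9a (-0.017, -0.49 to 0.47) was highest and Neo1 (-0.65, -1.18 to -0.11) lowest, and beside Man1b1, Pnpla7 (-0.30, -0.78 to 0.19) and Ehmt1 (-0.58, -1.16 to 0.012) were the 2 tested. Jmy was the only one of the 10 neighbours tested that was at least 2-fold higher. No neighbour of Prlr or F3 reached 100 UMIs.

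The genes whose levels over types were most like each member's were named from 9188 other genes with at least 100 UMIs, by Pearson's r over 18 points (9 types in 2 libraries, each library centred on its own mean). The points share libraries and gates, so r is a description. They were Wac and Atp2b4 for Homer1 (0.85 and 0.84), Etv3 and Cyfip2 for Mpp7 (0.87 and 0.85), and Vipr2 and Coq10b for Arih1 (both 0.84). They were Runx1t1 and Tshz3 for Akap12 (0.96 and 0.94), Nr3c1 and Susd6 for Man1b1 (0.91 and 0.88), and Tmem135 and Ttc7 for Prlr (0.85 and 0.84). Hars was the most alike gene for Abtb2 (0.95), and Ndnf and Tspan2 were those for F3 (0.93 and 0.92). Akap12, Abtb2 and F3 had the highest values of r. Each r was picked as 1 of the 2 highest among 9188 genes, and some profiles rest on few UMIs. Hars had 298 UMIs over all types and both libraries, and Prlr never reached 100 UMIs in a gated type.

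The members lie on 7 chromosomes. On GRCm38 Homer1 spans chr13:93299635-93405129, Arih1 chr9:59388258-59486618 on the minus strand, Akap12 chr10:4266380-4359470, Man1b1 chr2:25332338-25352212, Prlr chr15:10177238-10349180, Abtb2 chr2:103566310-103718423 and F3 chr3:121723537-121735048, while Mpp7 spans 279 kb of chromosome 18 on the minus strand. Counts were not tied to exons or introns in the matrices, so forms such as the short Homer1 transcript were not told apart here.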

How the data were processed

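RNA and accessible chromatin were measured in nuclei of 1 PBS and 1 OVA library (10x Multiome). The deposited values are raw counts: UMIs per gene and counts per peak for each barcode, made by the authors with Cell Ranger ARC (version 2.0.1 per the submitters' processing notes) on mm10, with peaks called in each library separately. Nothing was normalized before deposit.

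Barcodes under 200 genes or over 60% mitochondrial UMIs were dropped, which left 4572 (PBS) and 5246 (OVA). A nucleus was gated to a type on at least 2 distinct markers with a lead of 1 over the next type, and 3 listed markers found in over 15% of other types' nuclei were not counted. No doublet caller was run, and nuclei with tied types stayed ungated. Member UMIs were summed per type and divided by nuclear-gene UMIs. Ratios carry exact conditional binomial intervals, levels Poisson intervals and shares Clopper-Pearson intervals, all at 95% and for counting error only. A gene counted as higher at 2-fold or more with its interval above equality and at least 100 UMIs over both libraries. Differences between ratios carry an approximate normal interval. For accessibility, counts in peaks that overlapped a peak of the other library were divided by all counts of the type's nuclei in such peaks.

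The members, marker lists and gene lists were chosen with earlier results of these data known, and the gate was set after gate sizes were seen. Partners named are those with the highest and lowest ratios of each list, neighbours those within 500 kb, and alike genes the 2 with the highest r on log2(CPM + 10), a pseudocount of 10, of which 1 for Abtb2 is not reported here. Alternatives covered the denominator, gate, mitochondrial range, depth, deep nuclei and peak overlap. Promoters came from RefSeq (GRCm38.p6). The ratio code was checked on simulated counts. Python 3.11.15, numpy 2.4.6, scipy 1.17.1, pandas 2.3.3 and matplotlib 3.10.9 were used.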

Additional observations from a re-analysis of the deposited data

How the results depend on the processing

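No paired analysis was possible because the PBS and OVA groups held 1 library apiece. The count of 5 gene and type pairs at least 2-fold higher, outside the types that chose the genes, became 9 with all gene UMIs as the denominator, 3 relative to the median gene, 2 with 1 more marker needed, 0 with at most 20% mitochondrial UMIs, 2 with nuclei thinned to 500 UMIs, and 10 with either a minimum of 30 UMIs or no minimum. Fewer pairs were compared with 1 more marker (15), at most 20% mitochondrial UMIs (12) and thinning (9). The summed log2 ratio of 0.71 stayed above equality throughout, at 0.86 with all gene UMIs, 0.55 with 1 more marker, 0.48 with at most 20% mitochondrial UMIs, 0.86 without the 5% deepest nuclei, 0.91 without nuclei that reached the minimum of another type, 0.77 thinned and 0.81 as a mean of single-nucleus CPM. That exclusion of mixed nuclei, the use of all markers and the removal of shared barcodes were chosen after seeing the data.

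Of 785 ratios of a member in a type under the alternatives, 696 stayed within the interval of the reported value, 84 moved and 5 changed direction. With at most 20% mitochondrial UMIs the 5 were Homer1 (-1.27) and Mpp7 (-0.91) in mast cell or basophil nuclei, Arih1 in macrophage nuclei (-0.52) and Abtb2 in fibroblast nuclei (-0.02), and with 20 to 40% Abtb2 in macrophage nuclei (-0.33). The limit of 20% left 4 PBS and 12 OVA mast cell or basophil nuclei and 2 PBS and 17 OVA macrophage nuclei. The cause of the changes of direction was not tested. Of 470 such ratios whose reported interval lay above equality, 69 had one that reached it. The accessibility ratio in ILC2-gated nuclei lay between -0.08 and -0.017 under its alternatives. With 1 library per group, dam, pool, depth and treatment cannot be told apart.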

Other observations

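In the nuclei that no gate took (2152 PBS and 1906 OVA), the 8 genes summed to 1621 and 2738 nuclear CPM, a log2 ratio of 0.76 (0.69 to 0.82). Homer1 had 251 and 817 UMIs there, a log2 ratio of 1.26 (1.05 to 1.47), and Mpp7 had 497 and 1532 UMIs, a log2 ratio of 1.18 (1.03 to 1.33). Akap12 had 251 and 289 UMIs, a log2 ratio of -0.24 (-0.49 to 0.0078), and Man1b1 had 67 and 97 UMIs, a log2 ratio of 0.089 (-0.38 to 0.56). These nuclei have no cell type name, and their makeup may differ between the libraries.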
